A study of Mus musculus with 8 samples.

Results

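The 7 genes described here mark spinal motor neurons and cholinergic neurons, and they were followed in whole spines of mouse embryos at E18.5. Chat, Slc18a3, Slc5a7, Isl1, Isl2, Mnx1 and Ret were taken by name from a table of 27179 genes, as a list drawn up with earlier results of these data known. All 7 were found, and all 7 passed the filter on low counts that left 18104 genes for testing. Male and female embryos labelled Pax1-Enh KO (KO), in which a sex-associated region at Pax1 had been deleted, were set against male and female wild type (WT) embryos of the same stage. Each of the 4 groups (male KO, female KO, male WT, female WT) had 2 libraries of polyadenylated RNA, which gives 4 KO and 4 WT libraries. The labels do not give the strain, where the deletion starts and ends, or whether the 2 replicates of a group were separate embryos, so p-values measure the spread between these libraries.

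Spinal motor neurons sit in the ventral spinal cord, send axons to skeletal muscle and release acetylcholine. The LIM homeodomain factors Isl1 and Isl2 and the homeodomain factor Mnx1 (also called HB9) specify them after the last division of their progenitors. Acetylcholine is made by choline acetyltransferase (Chat), loaded into vesicles by the vesicular acetylcholine transporter (Slc18a3) and renewed from choline that the high-affinity transporter Slc5a7 takes back into the terminal. Ret is the receptor tyrosine kinase through which GDNF family ligands, bound to GFRα co-receptors, sustain motor neurons. Several of these genes are not restricted to motor neurons. Isl1, Isl2 and Ret are also known in sensory neurons of the dorsal root ganglia, Isl1 and Ret in sympathetic neurons, and Isl1 and Mnx1 in pancreatic islet cells.

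Chat and Slc18a3 form one locus, which bears on how their counts are read. In mm10, Chat spans chr14:32408203-32465989 on the minus strand, with 17 exon blocks of 4703 exonic bases in GENCODE M21. Slc18a3 (chr14:32462438-32464850, minus strand, 1 exon of 2413 bases) lies inside Chat, after the first Chat exon block, with the other 16 blocks further downstream. It shares 0 exonic bases with Chat, and their annotated starts in GENCODE M21 are 1139 bases apart. Because both genes lie on the same strand, unspliced Chat RNA across this intron would be counted as Slc18a3, and its part in the counts was not tested. No other member overlaps the exons of a gene that has a row in the counts. Slc5a7 is at chr17:54273590-54299034, Isl1 at chr13:116298281-116309689, Mnx1 at chr5:29473034-29478470 and Ret at chr6:118151745-118197718, all on the minus strand. Isl2 is at chr9:55538672-55546180 on the plus strand. Antisense genes annotated across Chat and Isl2 share 0 exonic bases with them and have no row in the counts.

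The promoter sequences of the nested cholinergic pair and of the paralogs Isl1 and Isl2 are shown because each pair shares a locus or a family and yet differs in level or in its pattern over the libraries below. RefSeq (GRCm38.p6, the mm10 build) gave a window for 6 of the 7 members, named as Chat, Slc18a3, Slc5a7, Isl1, Isl2 and Mnx1. The 250 bases before the transcript start that the RefSeq promoter table uses for each gene are printed 5′ to 3′ in the direction of transcription, at chr14:32465910-32466159 for Chat and chr14:32464851-32465100 for Slc18a3 on the minus strand, at chr13:116309689-116309938 for Isl1 on the minus strand and at chr9:55540899-55541148 for Isl2 on the plus strand. For Isl2 that start lies inside the gene span given above, downstream of the first base of the longest annotated span, so the printed bases are upstream of one of its transcript starts and not of the whole gene. The Chat window adjoins the RefSeq start of Chat at 32465909, inside the span given above, which reaches 32465989. Its last printed bases therefore lie within that span. Capitals mark every match to TGACG or to its reverse complement CGTCA, the core that makes up either side of the cAMP response element.
Chat: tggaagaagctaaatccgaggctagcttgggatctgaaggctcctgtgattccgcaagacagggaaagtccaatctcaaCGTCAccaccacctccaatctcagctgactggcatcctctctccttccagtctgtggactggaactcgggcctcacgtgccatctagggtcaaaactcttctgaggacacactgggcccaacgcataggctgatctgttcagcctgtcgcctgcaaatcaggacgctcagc
Slc18a3: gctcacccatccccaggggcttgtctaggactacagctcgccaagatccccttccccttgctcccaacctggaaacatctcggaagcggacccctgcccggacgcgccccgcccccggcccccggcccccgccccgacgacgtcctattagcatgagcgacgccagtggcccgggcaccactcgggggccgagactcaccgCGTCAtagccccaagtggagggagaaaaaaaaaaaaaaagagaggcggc
Isl1: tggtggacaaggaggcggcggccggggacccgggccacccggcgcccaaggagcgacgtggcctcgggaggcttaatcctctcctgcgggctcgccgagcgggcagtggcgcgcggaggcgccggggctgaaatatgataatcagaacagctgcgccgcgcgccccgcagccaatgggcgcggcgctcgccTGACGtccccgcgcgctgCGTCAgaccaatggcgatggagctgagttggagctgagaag
Isl2: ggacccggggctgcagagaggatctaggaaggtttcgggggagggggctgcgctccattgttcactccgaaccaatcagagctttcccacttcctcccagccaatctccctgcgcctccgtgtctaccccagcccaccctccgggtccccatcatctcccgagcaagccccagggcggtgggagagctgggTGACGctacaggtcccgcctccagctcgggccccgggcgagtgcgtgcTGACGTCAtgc
This core was present in 4 of the 6 member windows, counted over both strands and from 250 bases before to 50 bases after the start, and in 20.8% of all 32851 windows of that length. The complete palindrome TGACGTCA, which holds 2 overlapping copies of it, was found in the Isl2 window alone, 11 bases before that internal start, against 1.79% of all windows. The Isl1 window had copies 59 and 41 bases before the start. The CCAAT box was in 4 of 6 windows (37.4% of all windows) and the GC box GGGCGG in 3 of 6 (35.7%). The homeodomain core TAATTA was in 0 of 6 (5.29%). The TATA box letters TATAAA were in 1 of 6 (13.6%), that of Slc5a7, 187 bases before its start. Guanine and cytosine made up 54.8% of the printed Chat sequence and 66.0% of that of Slc18a3, and 71.2% and 66.8% of those of Isl1 and Isl2. These matches are descriptions of letters, and no binding was measured.

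Library totals ran from 59722279 to 67575728 counts in KO and from 35181518 to 48021848 counts in WT, so depth and genotype cannot be told apart. Mitochondrial transcripts took 4.56% and 15.6% of counts in male KO, 13.6% and 4.66% in female KO, 18.3% and 20.9% in male WT, and 5.55% and 7.27% in female WT. Spinal tissue was present in every library, since each of the 15 pan-neuronal genes and 16 spinal interneuron genes had counts in all 8. Lhx3, a LIM factor that pairs with Isl1 in motor neurons, had 68, 31, 35 and 85 counts in KO and 27, 49, 62 and 30 in WT. One library, female WT 1, held pancreatic RNA. Its 7 acinar genes summed to 1803 CPM, the count rate scaled to the TMM-normalised library size, against 1.04 to 5.98 CPM in the other 7 libraries, and it had 286 Ins1 and 626 Ins2 counts where the other libraries had 0 to 4 and 0 to 8. Since Isl1 and Mnx1 are also islet genes, their female values are given with and without that library. Summed levels of other tissues' markers also differed between KO and WT libraries without overlap for adipocyte genes and with overlapping ranges for the other lists given here. They were 27.0 to 62.6 CPM in KO and 124 to 2013 CPM in WT for 6 adipocyte genes, 10342 to 26457 CPM in KO and 5074 to 11003 CPM in WT for 6 cartilage genes, and 339 to 656 CPM in KO and 335 to 420 CPM in WT for 8 Schwann cell and oligodendrocyte genes. Their part in the results was not tested.

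None of the 7 genes passed the test for a difference between KO and WT spines. Over both sexes (4 KO against 4 WT), the log2 fold changes ranged from -0.22 for Mnx1 to 0.46 for Isl2, and edgeR's quasi-likelihood test with Benjamini-Hochberg adjustment over 18104 genes gave adjusted p-values from 0.821 to 0.996. The test called 0 of the 7 members and 0% of all genes at an adjusted p under 0.05. At an unadjusted p under 0.05 it reached 0 of 7 members, against 6.83% of all genes, and DESeq2 called 0 of 7 against 0.779% of all genes. In 4 of 7 members the fold change was positive, against 48.9% of all genes, and the median was 0.04 over the members and -0.01 over all genes tested. The KO and WT libraries overlapped for all 7 members, where 1.68% of genes had every KO library above every WT library and 1.63% had every KO library below. Bulk counts of these genes cannot separate the number of motor neurons from the RNA per motor neuron, or from RNA of other cells.

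**Figure D1:**
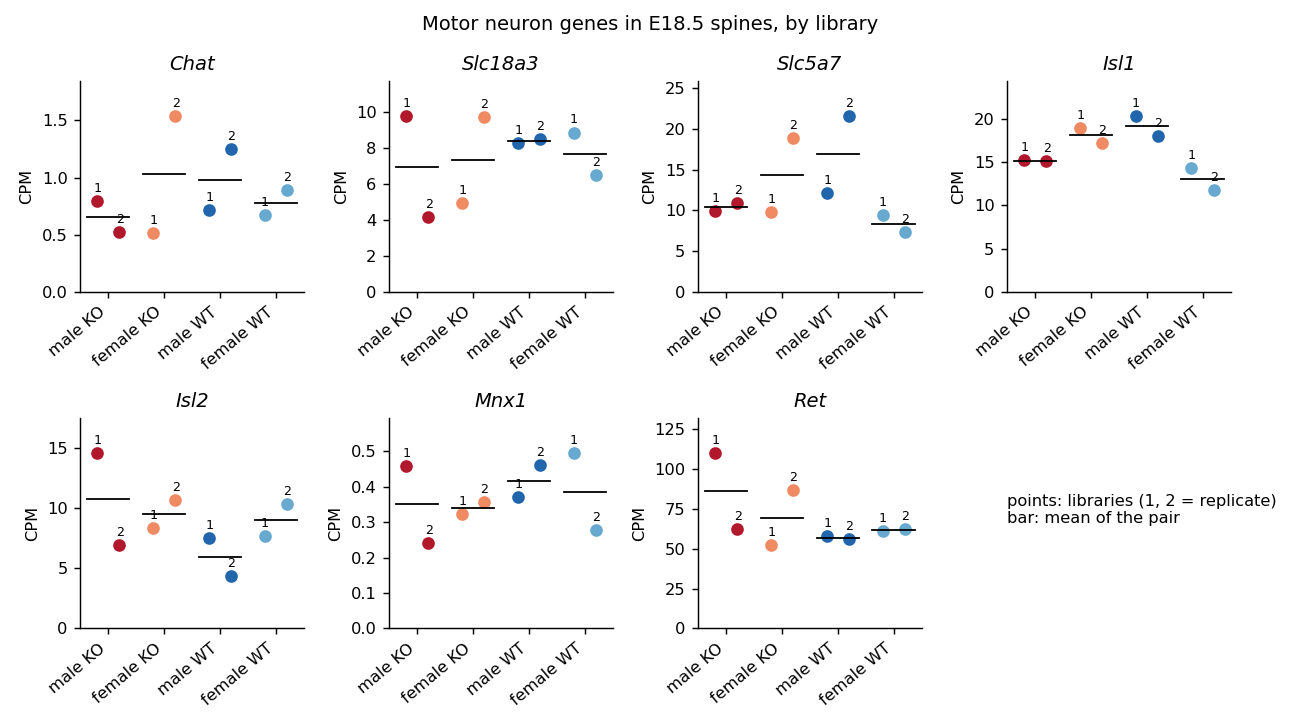
CPM (linear axis from 0) of the 7 motor neuron genes in male KO, female KO, male WT and female WT spines, with 1 point per library, its replicate number above it and a bar at the mean of the pair. Chat and Mnx1 reach at most 1.54 and 0.495 CPM, Ret lies between 52.3 and 110.2 CPM, and over both sexes KO and WT points overlap in every panel.

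The level of the members spanned a wide range. Per kilobase of exon, which allows genes to be compared, Ret was the highest of the 7 in 8 of 8 libraries, at 11.5 ± 3.84 CPM per kb in KO and 8.80 ± 0.43 in WT (SD, n = 4 each). Chat and Mnx1 were the 2 lowest in 8 of 8 libraries. Chat averaged 0.179 ± 0.102 CPM per kb in KO and 0.187 ± 0.055 in WT, and Mnx1 averaged 0.153 ± 0.040 in KO and 0.178 ± 0.044 in WT (SD, n = 4 each). Which of the lowest pair was lower varied, since Chat was lowest in 4 libraries and Mnx1 in 4. Between them and Ret, the WT means were 2.24 ± 1.12 CPM per kb for Slc5a7, 3.32 ± 0.44 for Slc18a3, 3.41 ± 1.12 for Isl2 and 4.06 ± 0.96 for Isl1 (SD, n = 4), and these neighbours did not differ beyond their spread. Their order changed from library to library.

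Among the cholinergic genes, Chat, the enzyme that makes acetylcholine, was scarce. Its raw counts were 61 and 28 in male KO, 29 and 108 in female KO, 29 and 54 in male WT, and 30 and 32 in female WT. In CPM these were 0.797 and 0.520 in male KO, 0.518 and 1.54 in female KO, 0.715 and 1.25 in male WT, and 0.675 and 0.887 in female WT. Female KO held both the lowest and the highest library, and the 4 group means followed the order male KO, female WT, male WT, female KO with every neighbouring pair overlapping. The exact 95% Poisson interval, which covers counting error only, was 1.26 to 1.86 CPM in female KO 2 and 0.347 to 0.744 CPM in female KO 1, so these 2 libraries of one group differed by more than counting error. The log2 fold change, KO over WT, was -0.08 (SE 0.43, adjusted p = 0.995 by edgeR) over both sexes, -0.57 (SE 0.58) in males and 0.41 (SE 0.58) in females. Its 95% interval over both sexes, -1.05 to 0.89, spans a change of about a factor of 2 in either direction.

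Slc18a3, the vesicular transporter nested in Chat, had 746 and 223 counts in male KO, 277 and 681 in female KO, 335 and 368 in male WT, and 393 and 233 in female WT. The CPM values were 9.75 and 4.14 in male KO, 4.95 and 9.69 in female KO, 8.26 and 8.49 in male WT, and 8.84 and 6.46 in female WT. Each KO pair split, with male KO 1 and female KO 2 above all WT libraries and male KO 2 and female KO 1 below all of them. The KO mean was 7.13 ± 3.01 CPM and the WT mean 8.01 ± 1.06 CPM (SD, n = 4 each), with a log2 fold change of -0.17 (SE 0.31, 95% interval -0.86 to 0.53, adjusted p = 0.978 by edgeR). Slc18a3 was more abundant than the host gene Chat in 8 of 8 libraries. The ratio of their counts was lowest in female KO 2, at 6.31 (exact 95% interval 5.14 to 7.80), and highest in female WT 1, at 13.1 (9.03 to 19.7). Per kilobase of exon the ratio ran from 12.3 to 25.5. The intervals of these libraries did not meet, but the pair was picked as the extremes of the 8, which makes such a gap more likely. KO libraries (6.31 to 12.2) and WT libraries (6.81 to 13.1) covered nearly the same range of count ratios.

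Slc5a7, the choline transporter of cholinergic terminals, had 759 and 585 counts in male KO, 548 and 1332 in female KO, 494 and 936 in male WT, and 421 and 263 in female WT. Its CPM levels were 9.92 and 10.9 in male KO, 9.78 and 19.0 in female KO, 12.2 and 21.6 in male WT, and 9.47 and 7.29 in female WT. Both male KO libraries lay below both male WT libraries, and both female KO libraries lay above both female WT libraries. KO over WT, the log2 fold change in males was -0.70 (SE 0.37, adjusted p = 0.394 by edgeR) and in females 0.78 (SE 0.38, adjusted p = 0.548 by edgeR), and over both sexes it was 0.04 (SE 0.37). The female value leaned on 1 library, as it was 0.22 without female KO 2, and the male value was -0.22 without male WT 2.

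**Figure D2:**
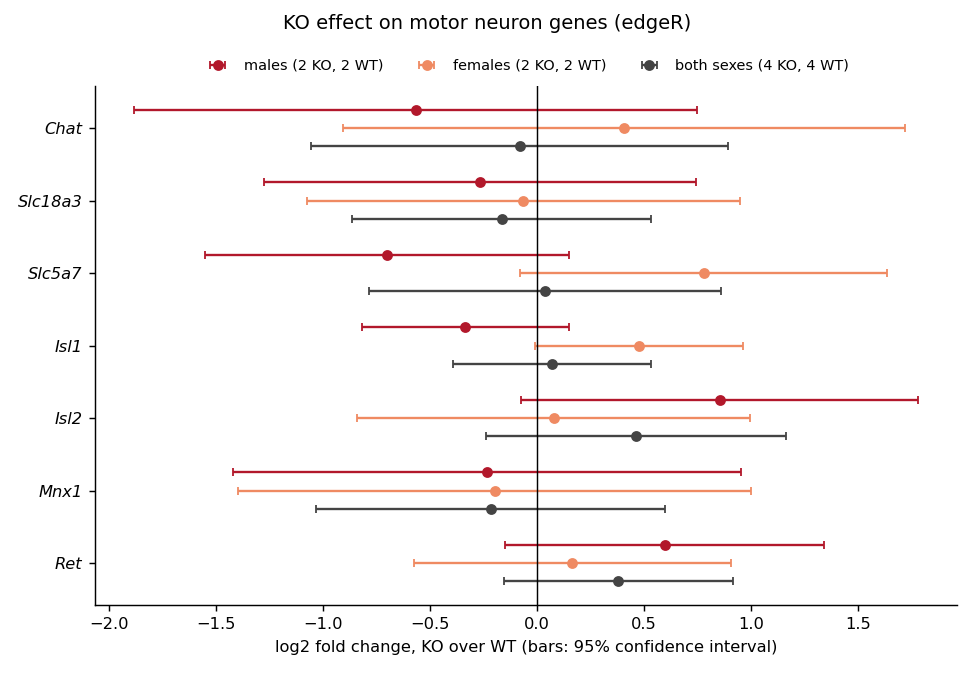
Log2 fold change, KO over WT, of each motor neuron gene in males (2 KO, 2 WT), in females (2 KO, 2 WT) and over both sexes (4 KO, 4 WT) from edgeR, with bars for the 95% confidence interval and a line at 0. Every interval crosses 0, that of Isl1 in females by the least (-0.01 to 0.96), and Slc5a7 and Isl1 lie left of 0 in males and right of 0 in females.

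Of the transcription factors, Isl1 was the steadiest and Isl2 the most variable. Isl1, a LIM homeodomain factor required for motor neuron identity, had 1168 and 813 counts in male KO, 1064 and 1210 in female KO, 824 and 779 in male WT, and 635 and 424 in female WT. In CPM this amounted to 15.3 and 15.1 in male KO, 19.0 and 17.2 in female KO, 20.3 and 18.0 in male WT, and 14.3 and 11.7 in female WT. The KO libraries were below the WT libraries in males and above them in females, with no overlap in either sex. In males Isl1 had a log2 fold change of -0.33 (SE 0.21, adjusted p = 0.464 by edgeR), in females 0.48 (SE 0.21, adjusted p = 0.540 by edgeR), and over both 0.07 (SE 0.21, 95% interval -0.39 to 0.53). Without female WT 1, the library with pancreatic RNA, the female value was 0.62. In group order the means ran female WT, male KO, female KO, male WT, and among neighbours female KO and male WT overlapped and the others did not.

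Isl2, the paralog of Isl1 in motor and sensory neurons, had 1116 and 371 counts in male KO, 466 and 750 in female KO, 306 and 189 in male WT, and 340 and 374 in female WT. Its CPM levels were 14.6 and 6.89 in male KO, 8.32 and 10.7 in female KO, 7.55 and 4.36 in male WT, and 7.65 and 10.4 in female WT. Male KO 1 was the highest and male WT 2 the lowest library. Over both sexes the log2 fold change was 0.46, the largest of the 7 (SE 0.31, 95% interval -0.24 to 1.17, adjusted p = 0.839 by edgeR). It was 0.85 in males (SE 0.41, adjusted p = 0.362 by edgeR) and 0.08 in females (SE 0.40). Without male KO 1 the value over both sexes was 0.13, below that of Ret in the same fit (0.15), and the male value was 0.21. The ratio of Isl2 to Isl1 per kilobase of exon ran from 0.438 in male WT 2 to 1.72 in male KO 1. In raw counts Isl2 was below Isl1 in every library, at ratios of 0.243 to 0.955. The lengths are those of GENCODE M21, where Isl2 ends at 55546180, whereas the RefSeq gene ends at 55547667. Since the annotation behind the counts is not given, these ratios do not settle which paralog was more abundant.

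Mnx1, the homeodomain factor HB9 of postmitotic motor neurons, gave the fewest counts of the 7, with 35 and 13 in male KO, 18 and 25 in female KO, 15 and 20 in male WT, and 22 and 10 in female WT. In CPM these were 0.457 and 0.242 in male KO, 0.321 and 0.356 in female KO, 0.370 and 0.461 in male WT, and 0.495 and 0.277 in female WT. For comparison, 3 counts correspond to 0.0392 to 0.0831 CPM in these libraries. The lowest library, male KO 2, had an exact 95% Poisson interval of 0.129 to 0.413 CPM, and the highest, female WT 1, one of 0.310 to 0.749 CPM. These intervals overlap, and the libraries were not tested against each other. The log2 fold change over both sexes was -0.22 (SE 0.36, 95% interval -1.03 to 0.60, adjusted p = 0.975 by edgeR), and it was -0.03 without female WT 1. Leaving out each library in turn gave -0.42 to -0.03. In females it was -0.20 (SE 0.53), and 0.28 without female WT 1, the library with islet transcripts.

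Ret, the GDNF receptor kinase, had 8434 and 3358 counts in male KO, 2928 and 6087 in female KO, 2345 and 2443 in male WT, and 2724 and 2260 in female WT. Its CPM levels were 110.2 and 62.4 in male KO, 52.3 and 86.7 in female KO, 57.8 and 56.4 in male WT, and 61.3 and 62.6 in female WT. The 4 WT libraries lay close together, at 59.5 ± 2.92 CPM, whereas the KO libraries spread over 77.9 ± 25.9 CPM (SD, n = 4 each). Both male KO libraries exceeded both male WT libraries. For Ret the male log2 fold change was 0.60 (SE 0.33, adjusted p = 0.402 by edgeR), the female one 0.17 (SE 0.33) and the joint one 0.38 (SE 0.24, 95% interval -0.16 to 0.92, adjusted p = 0.821 by edgeR). Without male KO 1 the male value was 0.13 and the joint one 0.15.

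Within each sex the members can be read beside all genes tested. In males edgeR called 0 of 7 members and 0% of genes after adjustment, reached 0 of 7 members against 14.8% of genes at an unadjusted p under 0.05, and DESeq2 called 0 of 7 against 2.66%. The male KO libraries were above the male WT libraries without overlap for 1 member, Ret, against 19.7% of all genes, and below them for 2, Slc5a7 and Isl1, against 23.9%. The male fold change was positive in 2 of 7 members, against 45.4% of all genes, with a median of -0.27 over the members and -0.06 over all genes. In females the adjusted test also called 0 of 7 and 0% of genes, the unadjusted one 0 of 7 against 9.27%, and DESeq2 0 of 7 against 0.795%. Female KO libraries were above female WT libraries without overlap for 2 members, Slc5a7 and Isl1, against 25.9% of genes, and below them for 0, against 26.2%. The female fold change was positive in 5 of 7 members, against 52.6% of all genes, with a median of 0.17 over the members and 0.03 over all genes.

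The title of the series calls the deleted region sex-associated, so the KO effect was compared between the sexes. Subtracting the male from the female log2 fold change gave 1.48 for Slc5a7 (SE 0.53, 95% interval 0.27 to 2.69, adjusted p = 0.266 by edgeR). For Isl1 it gave 0.81 (SE 0.30, 95% interval 0.12 to 1.50, adjusted p = 0.272 by edgeR). Neither passed the threshold after adjustment. These 2 of 7 members were under an unadjusted p of 0.05, against 16.7% of all genes, and the adjusted test called 0 of 7 members and 0% of genes. DESeq2 called 0 of 7 members against 2% of genes, and the difference was positive in 5 of 7 members against 51.7% of genes. Values for the other members were 0.97 for Chat (SE 0.82), 0.20 for Slc18a3 (SE 0.63), 0.03 for Mnx1 (SE 0.74), -0.43 for Ret (SE 0.46) and -0.78 for Isl2 (SE 0.57). With the mean level of the pan-neuronal list as a covariate, the Slc5a7 difference was 0.29 and the Isl1 difference 0.80. In WT, mitochondrial share went with sex, at 5.55% and 7.27% in females and 18.3% and 20.9% in males, and its part in these differences was not tested beyond a fit with that share as a covariate, in which they were 1.77 for Slc5a7 and 0.80 for Isl1.

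Between female and male spines of both genotypes, the members' log2 differences (female minus male) lay between -0.27 for Slc5a7 and 0.21 for Isl2, with adjusted p-values of 0.757 to 0.973 by edgeR. The test called 0 of 7 members and 0.0166% of genes, the unadjusted p reached 0 of 7 against 8.67%, and DESeq2 called 0 of 7 against 1.3%.

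The members differed in which of the neuronal lists their profiles over the 8 libraries lay nearest to. Each gene and list was expressed as log2 CPM minus its own mean over the libraries, and the root mean square difference between 2 such profiles served as a measure of unlikeness, given here as a description. Isl2 was 0.19 from the mean profile of 15 dorsal root ganglion sensory neuron genes and 0.62 from the pan-neuronal profile. Ret stood 0.22 from the ganglion profile and 0.41 from the pan-neuronal one, with the profile of the 8 Schwann cell and oligodendrocyte genes about as near (0.24). Isl1 showed the opposite order, 0.19 from the pan-neuronal and 0.49 from the ganglion profile, and so did Slc5a7, at 0.30 and 0.71, with the astrocyte and radial glia profile as near (0.28). Slc18a3 and Mnx1 were closest to the 16 spinal interneuron genes, at 0.26 and 0.18. Mnx1 rests on 10 to 35 counts a library, and the part of counting error in its distances was not measured. Among the members themselves, Slc18a3 and Mnx1 were the closest pair (0.256), then Isl2 and Ret (0.316), and Slc5a7 and Isl2 were the farthest apart (0.839). From a flat profile, with no change over the libraries, the distances were 0.48 for Isl2, 0.34 for Ret, 0.24 for Isl1, 0.49 for Slc5a7, 0.43 for Slc18a3 and 0.31 for Mnx1. Isl1 was thus little nearer to the pan-neuronal profile than to a flat one, and Ret was nearer to the flat one. All profiles come from the same 8 libraries, and depth and mitochondrial share are common to all genes of a library.

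**Figure D3:**
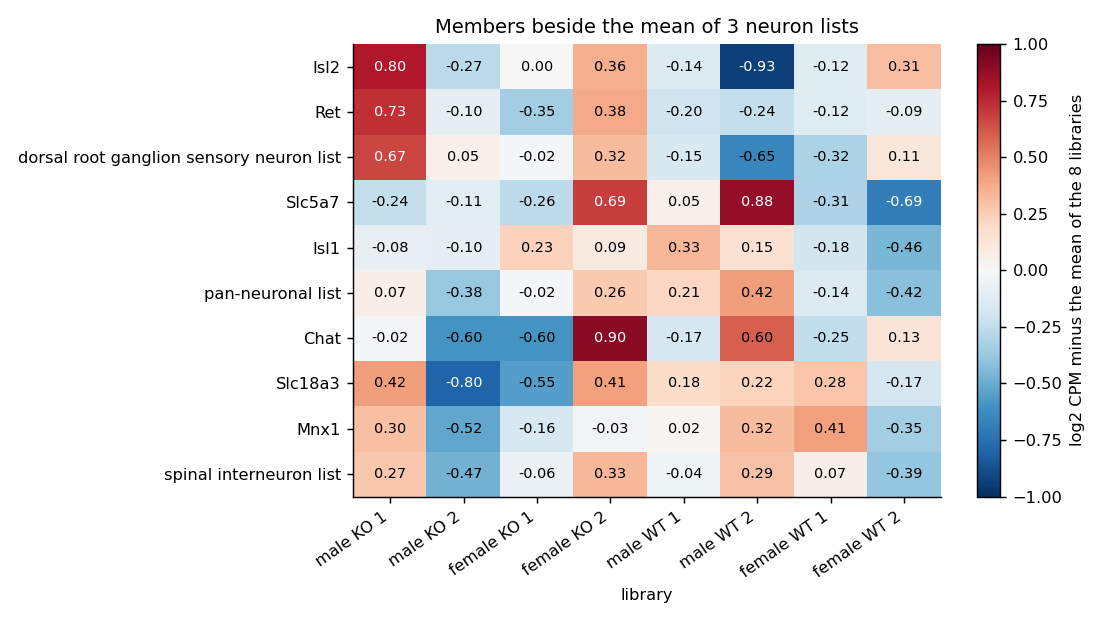
Log2 CPM minus the mean of the 8 libraries (color scale and printed values) for the 7 motor neuron genes and the mean of the ganglion sensory, pan-neuronal and spinal interneuron lists, with KO libraries on the left and WT libraries on the right. Isl2 and Ret are highest in male KO 1 (0.80 and 0.73) like the ganglion list (0.67), whereas Slc5a7 and the pan-neuronal list are highest in male WT 2 (0.88 and 0.42).

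The spread of a gene over the libraries changed with the list it was set against. Isl2 spanned 1.73 log2 units from the lowest to the highest library, 2.09 relative to the pan-neuronal mean, and 0.52 relative to the ganglion mean. For Ret the spans were 1.08, 1.32 and 0.74. Isl1 went the other way, with 0.79 alone, 0.55 relative to the pan-neuronal and 1.56 relative to the ganglion mean, and Slc5a7 likewise with 1.56, 0.76 and 2.44. Chat (1.50, 1.22, 1.95), Slc18a3 (1.23, 0.95, 1.73) and Mnx1 (0.93, 0.85, 1.54) also varied less against the pan-neuronal than against the ganglion mean. Relative to the pan-neuronal mean, Isl1 was at -3.00 ± 0.25 log2 units in KO and -3.11 ± 0.16 in WT, Slc5a7 at -3.48 ± 0.36 in KO and -3.55 ± 0.33 in WT, and Slc18a3 at -4.32 ± 0.43 in KO and -4.09 ± 0.28 in WT (SD, n = 4 each). Chat was at -7.38 ± 0.51 in KO and -7.25 ± 0.40 in WT, and Mnx1 at -8.48 ± 0.22 in KO and -8.31 ± 0.33 in WT. Ret was at -0.83 ± 0.41 in KO and -1.20 ± 0.44 in WT on that measure. For these 6 genes the KO and WT means differed by less than the SD of either group. Isl2, at -3.77 ± 0.33 in KO and -4.25 ± 0.87 in WT, differed by 0.48, more than its KO SD and less than its WT SD. Relative to the ganglion mean, KO minus WT was -0.77 for Slc18a3 (SD 0.40 in KO, 0.50 in WT), -0.71 for Mnx1 (0.17 in KO, 0.64 in WT) and -0.67 for Chat (0.61 in KO, 0.62 in WT), each beyond both SDs, and -0.47 for Slc5a7, -0.43 for Isl1, -0.18 for Ret and -0.07 for Isl2. These differences were not tested. The measure relative to the ganglion list was chosen after its values were seen.

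**Figure D4:**
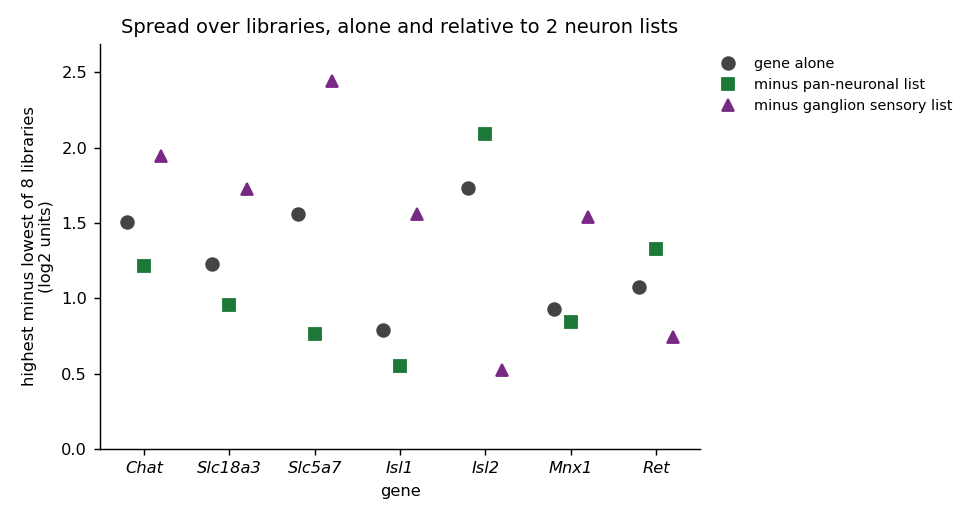
Highest minus lowest of the 8 libraries, in log2 units from 0, for each motor neuron gene alone (circles), relative to the mean of the pan-neuronal list (squares) and relative to the mean of the ganglion sensory list (triangles). The triangle is the lowest mark for Isl2 (0.52) and Ret (0.74) and the highest for the other 5 genes (1.54 to 2.44).

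Ganglion sensory genes, whose profile lay near those of Isl2 and Ret, mostly had positive KO fold changes themselves. The 15 genes of that list summed to 597 and 394 CPM in male KO, 358 and 454 in female KO, 336 and 286 in male WT, and 314 and 396 in female WT. Of the 15, 13 had a positive fold change over both sexes, against 48.9% of all genes, with a list median of 0.60 against -0.01 over all genes. Of the list, edgeR called 0, 4 had an unadjusted p under 0.05 against 6.83% of all genes, and DESeq2 called 1 against 0.779%. With the mean ganglion level as a covariate, a fit added after the data were seen, Isl2 had log2 fold changes of -0.31 (males), -0.29 (females) and -0.30 (both sexes), and Ret had -0.11, -0.09 and -0.09 in the same order. The ganglion profile lay near those of Isl2 and Ret in these same libraries, so lower values for both were largely built into this fit. The part of ganglion tissue in their values was not tested. Over both sexes the fit gave -0.55 for Slc18a3, -0.27 for Mnx1, -0.13 for Chat, 0.27 for Isl1 and 0.57 for Slc5a7. No member passed the threshold in it. With the pan-neuronal level instead, Ret was 1.19 in males (adjusted p = 0.0917 by edgeR), the smallest adjusted p of any member under any setting tried, and Isl2 was 1.15. Sympathetic neuron genes, where Isl1 and Ret are also known, summed to 29.6 to 83.9 CPM in KO and 69.0 to 156.8 CPM in WT. Their part in the members' values was not tested.

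Mitochondrial share divided the KO libraries within each sex. Male KO 1 and female KO 2 (4.56% and 4.66%) were above male KO 2 and female KO 1 (15.6% and 13.6%) for 5 of the 7 members, namely Chat, Slc18a3, Isl2, Mnx1 and Ret, against 28.1% of all genes tested. The reverse held for 0 members and 25.6% of all genes. This division was seen in the data and is given with no test. With mitochondrial share as a covariate, the male fold changes were -1.44 for Slc18a3, -1.47 for Chat, 0.04 for Isl2 and -0.17 for Ret, none past the threshold.

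Of the related gene lists described next, edgeR called 0 members in any KO comparison. Genes of one list can rise and fall together over the same libraries. Counts of positive genes, here and for the ganglion list above, are therefore not counts of independent results. In male KO, where DESeq2 called 2.66% of all genes, it called 2 of 17 effector, 4 of 15 ganglion and 4 of 10 junction genes higher and 1 of 15 pan-neuronal genes lower. Over both sexes, where it called 0.779% of all genes, it called 1 of 15 ganglion genes higher. It called 0 transcription factors or GDNF family genes in any of the 3 comparisons. Of 16 further transcription factors of motor neurons and their progenitors, 8 had a positive fold change over both sexes (median 0.05), against 48.9% of all genes. Only 1 gene of the 16 had an unadjusted p under 0.05, against 6.83% of all genes, so the list was near that share. That gene was Etv1, an ETS factor, at 21.1, 22.9, 15.4 and 18.6 CPM in the male and female KO libraries and 11.5, 14.9, 14.2 and 14.4 CPM in the WT libraries, with a log2 fold change of 0.49 (SE 0.18, adjusted p = 0.694 by edgeR). The KO and WT libraries did not overlap for Etv1. Onecut1 and Onecut2, homeodomain factors of early motor neurons, had log2 fold changes of 1.02 (SE 0.49) and 0.57 (SE 0.29), the first from 2 to 27 counts a library.

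Of 17 effector genes of motor axons, 16 had a positive fold change over both sexes (median 0.22), against 48.9% of all genes, and 4 had an unadjusted p under 0.05, against 6.83%. The list includes Spp1 and Mmp9, which bone cells and osteoclasts also express strongly, with 136136 to 301004 counts in KO and 44535 to 131510 in WT for Spp1 and 22190 to 68306 in KO and 8484 to 17207 in WT for Mmp9. Their log2 fold changes were 0.66 (SE 0.36) and 0.80 (SE 0.35), Mmp9 being among the 4, and the part of skeletal cells in this list was not tested. Prune2 was at 52.6 and 35.5 CPM in male KO, 23.0 and 38.1 in female KO, against 18.6 and 21.7 in male WT and 20.3 and 21.9 in female WT. Every KO library exceeded every WT library, with a log2 fold change of 0.83 (SE 0.23, adjusted p = 0.621 by edgeR). In males it was 1.13 (SE 0.30), which DESeq2 called (adjusted p = 0.0330) and edgeR did not (adjusted p = 0.239). Nefh, the heavy neurofilament, and Calca, the gene of calcitonin gene-related peptide, had log2 fold changes of 0.46 (SE 0.17) and 0.45 (SE 0.20). Both are also known in ganglion sensory neurons.

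Among the 8 ligands and co-receptors of the GDNF family, 4 had a positive and 4 a negative fold change over both sexes, where 48.9% of all genes were positive. Of these 8, 0 had an unadjusted p under 0.05, against 6.83% of all genes. Gfra1, the co-receptor that binds GDNF together with Ret, was at 38.1 and 29.6 CPM in male KO, 24.4 and 36.3 in female KO, against 21.3 and 23.4 in male WT and 29.9 and 23.6 in female WT. As for Ret, the male KO libraries lay above the male WT libraries and the female ones overlapped, with a log2 fold change of 0.39 over both sexes (SE 0.20, adjusted p = 0.760 by edgeR). The ligand Gdnf had a log2 fold change of 0.45 (SE 0.25), from 1.18 to 1.65 CPM in KO and 0.914 to 1.33 CPM in WT. Gfra4, the persephin co-receptor, had one of -0.44 (SE 0.27).

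On the muscle side of the neuromuscular junction, all 10 genes had a positive fold change over both sexes (median 0.41), against 48.9% of all genes, and 3 had an unadjusted p under 0.05, against 6.83%. In males 10 of 10 were positive (median 0.83, against 45.4% of all genes), and in females 4 of 10 (median -0.14, against 52.6%). The difference between the sexes was not tested for the list. Musk, the agrin-dependent kinase that clusters acetylcholine receptors, was at 12.3 and 13.4 CPM in male KO, 5.68 and 6.41 in female KO, against 3.53 and 2.58 in male WT and 5.78 and 3.71 in female WT. Its log2 fold change in males was 2.07 (SE 0.30), called by DESeq2 (adjusted p = 1.77e-06) and not by edgeR (adjusted p = 0.179). Lrp4, the agrin receptor, and Chrnb1, a subunit of the muscle acetylcholine receptor, had log2 fold changes of 0.49 (SE 0.19) and 0.52 (SE 0.22) over both sexes. The 8 skeletal muscle genes summed to 20281 (female KO 2) to 35688 CPM (male KO 2) in KO. In WT they summed to 12929.9 (male WT 2) to 28478 CPM (male WT 1), so both WT extremes were male. Their part in the junction values was not tested.

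Of the 15 pan-neuronal genes, 7 had a positive fold change over both sexes (median -0.02), against 48.9% of all genes. In males 2 of the 15 were positive, against 45.4% of all genes, and in females 14, against 52.6%. The difference between the sexes was not tested for this list. Syt1, a vesicle calcium sensor, was at 100.5 and 85.1 CPM in male KO, 74.3 and 116 in female KO, against 106 and 120 in male WT and 63.8 and 51.5 in female WT. This is the arrangement also seen for Slc5a7, with male KO below male WT and female KO above female WT. Gap43, a protein of growing axons, had log2 fold changes of -0.69 in males (SE 0.27) and 0.28 in females (SE 0.26). Celf3, an RNA-binding protein of neurons, had log2 fold changes of -0.52 in males (SE 0.34) and 0.11 in females (SE 0.34).

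The ganglion gene with the smallest p was Runx1, a factor of nociceptive sensory neurons that blood cells also express. It was at 26.7 and 23.1 CPM in male KO, 18.1 and 18.7 in female KO, against 13.7 and 13.1 in male WT and 13.5 and 12.2 in female WT. All KO libraries exceeded all WT libraries, with a log2 fold change of 0.71 (SE 0.16) that DESeq2 called (adjusted p = 0.0190) and edgeR did not (adjusted p = 0.510). Scn10a, a sodium channel of nociceptors, and Pirt, a regulator of their TRP channels, had log2 fold changes of 0.91 (SE 0.34) and 0.77 (SE 0.29).

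The genes whose profiles over the 8 libraries were nearest to 4 of the members are listed by the root mean square difference, in log2 units, and nothing about shared function follows from them. Nearest to Chat were Cabp7 (0.171), Sstr3 (0.213), Cacna2d4 (0.216), Rnf223 (0.220) and Ppp1r16b (0.239). Isl1 had Tlcd5 (0.0891), Rsph1 (0.0899), Acvr1 (0.103), Zfp658 (0.105) and Nim1k (0.106) nearest. For Isl2 the genes were Susd2 (0.118), Kcnj11 (0.132), Naglu (0.144) and Ppm1j (0.152), and for Ret they were Cds2 (0.0706), Tmem63c (0.0763), Sema7a (0.0964), Astn2 (0.102) and Slc6a20a (0.111). The nearest genes of Chat were farther away than those of Ret, and Chat had far fewer counts than Ret. Likeness was measured over 8 libraries, and only among tested protein-coding genes with a proper name, leaving out predicted gene models. No member of the 7 was among these neighbours.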

How the data were processed

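Whole spines were profiled by stranded mRNA sequencing. The authors deposited 1 table of whole-number read counts per Entrez gene, not normalized, in 8 columns of which 0 lacked a sample. HISAT2, featureCounts and mm10 appear in the submitters' processing notes, while the annotation and the strand setting of the counting do not. Symbols for 25275 of 27179 genes came from RefSeq (GRCm38.p6), and exons and coordinates from GENCODE M21. Library totals were 35181518 to 67575728 counts.

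The 7 members and the 19 other marker lists were chosen with earlier results of these data known. Genes passed filterByExpr by group (minimum count 10). TMM and quasi-likelihood tests used edgeR 4.0.16 (R 4.3.3), with 4 group means (4 residual degrees of freedom) for each sex and their difference, and sex plus genotype (5) for both sexes together. The SE is the log2 fold change divided by the square root of F. Tests were two-sided, with p-values adjusted by Benjamini-Hochberg over 18104 genes and a threshold of 0.05. CPM uses TMM-scaled totals, and log2 CPM adds a prior count of 2. Poisson and binomial intervals cover counting error only. DESeq2 1.42.0 was an alternative, as were other scalings, no filter, covariates, the replicate block and leaving out each library. Named genes were all members and at most 3 genes with the smallest p over both sexes in 6 lists. Also named were the 5 nearest profiles of Chat, Isl1, Isl2 and Ret among protein-coding genes with a proper name. Of these profiles, 1 is not reported here. The tests were tried on simulated counts first.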

Additional observations from a re-analysis of the deposited data

Results flagged for a closer look

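Among the 4 KO libraries, Slc5a7 was far higher in female KO 2, at 18.96 CPM, than in the other 3, which lay between 9.78 and 10.9 CPM. Its gap to the nearest library made up 0.882 of the range of the KO group, above Dixon's 95% critical value for 4 samples. Such a test marks about 1 in 20 groups by chance, and 14 groups (7 genes in 2 genotypes) were examined. The same library was also highest in Chat, and the pan-neuronal list stood 0.26 log2 units above its mean there.

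For 2 genes, every KO library lay below every WT library in males and above every WT library in females. Taken singly such splits were common, at 23.9% of all genes for KO lower in males and 25.9% for KO higher in females. The share of all genes with both was not counted. The female minus the male KO effect was 1.48 on the log2 scale for Slc5a7 and 0.81 for Isl1. The difference itself was tested in edgeR's quasi-likelihood fit, with adjusted p-values of 0.266 and 0.272, so neither passed. Leaving out each library in turn gave 0.90 to 1.88 for Slc5a7 and 0.64 to 0.92 for Isl1.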

How the results depend on the processing

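No setting put a motor neuron gene past the threshold. Of 329 values of the 35 member log2 fold changes under other settings, 291 kept their sign and 38 changed it, and of 280 values with 1 library left out, 239 kept it and 41 changed it. The cause of each change of sign was not tested. Total counts without TMM moved the median of all genes by 0.21 in males, -0.26 in the sex-by-genotype difference and 0.17 between sexes. There, Chat was 0.053 over both sexes, Mnx1 0.015 and Slc18a3 0.0088 in males, Mnx1 -0.27 and Slc18a3 -0.079 in the sex-by-genotype difference, and Mnx1 0.082, Isl1 0.027, Ret 0.077 and Slc18a3 0.15 between sexes. Mnx1 in the sex-by-genotype difference was also -0.019 with DESeq2 size factors, -0.029 without mitochondrial genes and -0.014 in DESeq2. With the pan-neuronal covariate, male values were 0.38 for Chat, 0.56 for Mnx1 and 0.72 for Slc18a3, and female values -0.26 for Isl2, -0.54 for Chat and -0.45 for Ret. The sex-by-genotype difference was then -0.92 for Chat, -1.46 for Mnx1 and -1.81 for Slc18a3, and the sex effect 0.040 for Mnx1 and 0.15 for Slc18a3. The ganglion covariate gave Isl2 -0.30 over both sexes, -0.31 in males, -0.29 in females and 0.015 for the sex-by-genotype difference, and Ret -0.093, -0.11, -0.088 and 0.020 in that order. The mitochondrial covariate gave Ret -0.17 in males, Slc18a3 0.16 in females, Isl2 0.23 and Ret 0.49 in the sex-by-genotype difference, and Isl2 -0.22, Isl1 0.044 and Slc5a7 0.0079 between sexes.

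Calls over all genes moved more. DESeq2 called 141 genes over both sexes, 481 in males, 144 in females, 362 in the sex-by-genotype difference and 235 between sexes, where edgeR called 0, 0, 0, 0 and 3. Without the filter the counts were 39 in males, 1 in the sex-by-genotype difference and 12 between sexes, and with total counts they were 1 and 6 in those last comparisons. The pan-neuronal covariate gave 244 in males, 4 in females and 2 in the sex-by-genotype difference. The ganglion covariate gave 245 over both sexes, 6 in males, 256 in females and 7 between sexes, and the mitochondrial covariate 2 in females and 7 between sexes.

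With 1 library left out, calls ranged from 0 to 33 in females and 0 to 9 in the sex-by-genotype difference, both highest without female WT 2, and from 2 to 35 between sexes, highest without male KO 2. Over both sexes, Chat ranged from -0.56 to 0.20, Isl1 from -0.057 to 0.18, Slc18a3 from -0.42 to 0.053 and Slc5a7 from -0.30 to 0.36. In males, Mnx1 ranged from -0.78 to 0.14 and Slc18a3 from -1.01 to 0.22. In females, Isl2 ranged from -0.14 to 0.30, Chat from -0.59 to 0.98, Mnx1 from -0.55 to 0.28, Ret from -0.24 to 0.49 and Slc18a3 from -0.63 to 0.34. In the sex-by-genotype difference, Chat ranged from -0.047 to 1.54, Mnx1 from -0.34 to 0.58, Ret from -0.87 to 0.037 and Slc18a3 from -0.39 to 0.95. Between sexes, Isl2 ranged from -0.0073 to 0.55, Chat from -0.32 to 0.44, Mnx1 from -0.24 to 0.13, Isl1 from -0.25 to 0.0010, Ret from -0.20 to 0.14, Slc18a3 from -0.25 to 0.24 and Slc5a7 from -0.61 to 0.058.

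Replicate numbers 1 and 2 are shared by the groups, but the labels do not say that a number marks a litter or day. The difference between replicates 1 and 2 correlated across genes from -0.531 to 0.178 between pairs of groups. Such values cannot tell whether samples of the same number shared a litter or day. With the replicate block, 0 genes and 0 members were called in each KO comparison, and Isl2 over both sexes was 0.46. Chat and Mnx1 rest on 28 to 108 and 10 to 35 counts a library, and their 95% intervals over both sexes reach -1.05 and -1.03 on the log2 scale.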
